A study of Mus musculus with 46 samples.

Results

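The nuclear genes for subunits of the respiratory chain and the ATP synthase were followed in the heart and striatum of adult mice. Members were chosen by symbol: names that begin with Ndufa, Ndufb, Ndufc, Ndufs or Ndufv and a digit, Sdha to Sdhd, and names that begin with Uqcr, Cox4 to Cox8 or Atp5. Names that mark a pseudogene (-ps) were left out, and a member needed at least 10 counts in at least 3 libraries of a tissue. Of 57010 genes counted, 105 symbols matched, 91 were left without the pseudogene names, and 86 passed the count minimum in heart and 82 in striatum. All of the 86 and the 82 also passed the filter on low counts used before testing. The heart members were 38 of complex I, 4 of complex II, 8 of complex III, 19 of complex IV and 17 of complex V, and the striatum had 36, 4, 8, 17 and 17. Ndufa4 and Ndufa4l2 were placed in complex IV. Cox8b, Ndufa11b, Ndufs6b and Cox6c2 were members in heart alone. Counts of Ndufa11b, Ndufs6b and Cox6c2 are uncertain, since each resembles another member and reads could be divided between them.

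The mice were wild-type (WT) or HrDR5/DR5, called mutant here. The HrDR5 allele has 1 nucleotide deleted in the DR5 element of Hr, the hairless gene, an element through which thyroid hormone acts on it. Each genotype had an untreated, euthyroid group and a hypothyroid group given low-iodine food with propylthiouracil (PTU), a blocker of thyroid hormone synthesis, for 15 days. A further group had the 15 days and then thyroid hormone (TH) for 24 hours, written PTU+TH, although the time label of 1 mutant heart of this group gives only the 15 days. There were 22 heart and 24 striatum libraries of total RNA, with 4 in each group but 3 in the untreated and 3 in the PTU mutant hearts. The labels give no strain, sex or exact age and do not say whether libraries came from separate animals, so p-values measure the spread between these libraries.

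Complexes I and II pass electrons from NADH and succinate to ubiquinone, complex III passes them to cytochrome c, and complex IV, cytochrome c oxidase, gives them to oxygen. The proton gradient built by complexes I, III and IV drives complex V, the ATP synthase. Several complex IV subunits are encoded by a pair of genes, with one form abundant in heart and skeletal muscle (Cox6a2, Cox7a1, Cox8b) and the other found in most tissues (Cox6a1, Cox7a2, Cox8a). Thyroid hormone is a classical regulator of energy metabolism and contractile genes in heart.

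Libraries held 3269806 to 19531711 counts in heart and 9468774 to 13656893 in striatum, of which the members took 2.679 to 6.344% and 0.795 to 1.326%. Hr was at 15.4 to 16.3 CPM (counts scaled by each library's TMM-adjusted total) in untreated WT hearts, 1.37 to 3.68 under PTU and 69.4 to 80.6 after PTU+TH, and at 12.4 to 20.1 in mutant hearts after PTU+TH. The 8 cardiomyocyte markers were all detected in heart and summed to 41976 to 108678 CPM, against 71.5 to 182 in striatum, where the 6 markers of projection neurons summed to 3257 to 5702 CPM. Skeletal muscle markers summed to 1405 to 2955 CPM in heart, with Myh4 and Actn3, which define fast skeletal fibres, at no more than 1.17 CPM. Ckm alone was at 1403 to 2954 CPM, nearly all of that sum. Before any comparison, 3 heart libraries stood apart. WT untreated replicate 1 and WT PTU replicate 1 had fewer counts from long transcripts, with slopes of log2 CPM on log2 exonic length of -0.32 and -0.33 against -0.11 to 0.11 in the other hearts, and summed member levels of 62850 and 53897 CPM against 30591 to 44255. Mutant untreated replicate 2 had the lowest depth, 23.93% of its alignments outside genes and 7.689% of its counts in mt-Nd6.

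Promoter stretches are shown for 4 complex IV genes: the pair Cox7a1 and Cox7a2, since Cox7a1 had the smallest adjusted p under PTU in WT hearts and in the average of the genotypes, Cox6a1, the member called after TH, and Cox8b, which differed most between the tissues. Each is the 250 bases before the gene's start, 5′ to 3′ on the strand of the gene, from RefSeq on GRCm38.p6. They lie at chr7:30183921-30184170 (+ strand, Cox7a1), chr9:79759854-79760103 (- strand, Cox7a2), chr5:115348959-115349208 (- strand, Cox6a1) and chr7:140900447-140900696 (- strand, Cox8b). Capitals mark matches to the motifs listed in the next paragraph.
Cox7a1: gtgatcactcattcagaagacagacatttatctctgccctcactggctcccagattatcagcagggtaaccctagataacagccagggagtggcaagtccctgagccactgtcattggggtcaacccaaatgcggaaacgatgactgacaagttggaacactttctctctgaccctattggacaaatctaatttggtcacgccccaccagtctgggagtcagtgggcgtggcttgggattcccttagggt
Cox7a2: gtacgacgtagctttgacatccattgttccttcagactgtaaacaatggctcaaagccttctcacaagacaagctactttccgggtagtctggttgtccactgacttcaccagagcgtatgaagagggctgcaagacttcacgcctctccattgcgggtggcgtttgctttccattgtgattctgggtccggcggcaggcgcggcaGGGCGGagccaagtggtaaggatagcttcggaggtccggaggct
Cox6a1: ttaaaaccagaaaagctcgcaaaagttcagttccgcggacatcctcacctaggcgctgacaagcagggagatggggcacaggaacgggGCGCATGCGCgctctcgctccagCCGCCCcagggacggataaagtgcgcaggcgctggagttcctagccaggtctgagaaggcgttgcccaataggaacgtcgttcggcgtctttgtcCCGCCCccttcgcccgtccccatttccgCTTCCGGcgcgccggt
Cox8b: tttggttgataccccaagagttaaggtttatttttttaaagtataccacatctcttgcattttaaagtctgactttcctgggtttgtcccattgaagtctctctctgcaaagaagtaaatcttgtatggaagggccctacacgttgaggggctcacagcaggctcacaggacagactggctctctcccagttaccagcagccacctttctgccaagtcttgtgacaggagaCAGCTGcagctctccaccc

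Motifs were searched by their letters on both strands, in windows of 300 bases (250 before and 50 after the start) of 27025 genes. Of the 86 heart members, 68 had a window under their own symbol. The NRF1 core GCGCATGC was in 10 of the 68 (14.7%) and in 2.8% of all windows, and the ETS core CCGGAAG, bound by GABP, in 16 (23.5%) and 9.12%. The YY1 motif AAGATGGC was in 9 (13.2%) and in 2.88% of all windows, and 7 of these 9 were complex I genes. AAGGTCA, the motif of estrogen-related receptors, was in 8 (11.8%) and 4.66%, and AGGTCA, the nuclear receptor core that lies within it, in 16 (23.5%) and 16%. The GC box GGGCGG was in 27 (39.7%) and 35.9%, the muscle E-box CAGCTG in 6 (8.82%) and 16.1%, and the MEF2 core TATTTTTA in 0 and 2.71%. A match describes letters and is not a bound site.

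The printed windows differed in composition. Cox7a1 had 51.2% GC and 4 CpG and Cox8b 47.2% and 1 CpG, while Cox7a2 had 54.8% and 14 CpG and Cox6a1 62.8% and 26 CpG. Over the 250 bases before the start the median was 14 CpG for the 68 members and 6 for all genes. Cox7a1, Cox8b and Ndufc2 were the 3 members with fewer than 5. Cox6a1 held the ETS core 16 bases before the start, the NRF1 core on both strands at 162 and 160 bases, and GC boxes at 139 and 44 bases. Cox7a2 held a GC box at 44 bases and Cox8b an E-box at 19 bases, and no motif of the list matched the Cox7a1 stretch.

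In untreated WT mice nearly all members were higher in heart than in striatum, and the muscle forms of complex IV were close to absent from striatum. Of 84 members tested, 82 were higher in heart, where 36.8% of all 15016 genes were, and 1 was lower, where 40.8% were (edgeR quasi-likelihood test, Benjamini-Hochberg adjusted p under 0.05). The median difference of the members was 2.88 on the log2 scale, beside -0.10 over all genes. All tested members of complexes I (36), II (4), III (8) and V (17) were higher, and 17 of 19 in complex IV. Cox8b and Cox6c2 are among these 17 and met the count minimum in heart alone. Their direction thus follows from the rule that chose the members and is no finding. Tissue and any difference in library preparation between the tissues cannot be told apart, and in bulk tissue fewer cells of a type and less RNA per cell cannot be told apart.

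The core enzymes of every complex were higher in heart. Ndufs1, the largest iron-sulfur subunit of complex I, differed by 3.04 ± 0.169 (SE) on the log2 scale, Sdha, the flavin subunit of complex II, by 2.63 ± 0.199, and Uqcrc2, a core protein of complex III, by 3.30 ± 0.179. Cox4i1, a regulatory subunit of complex IV, differed by 2.59 ± 0.271, Atp5b, the catalytic beta subunit of the synthase, by 2.76 ± 0.203, and Atp5g3, a gene for its rotor ring, by 3.61 ± 0.239. Cox7a2l, which joins complexes III and IV into supercomplexes, had a smaller difference of 1.49 ± 0.201 (adjusted p = 1.59e-05).

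Cox8b, a member through heart alone, had the largest difference, 11.37 ± 0.508, with 694 ± 302 CPM in heart and 0.259 ± 0.203 in striatum (SD, n = 4, on a common scale). Cox7a1 differed by 11.00 ± 0.421, with 946 ± 424 CPM in heart and 0.449 ± 0.0587 in striatum. Cox6a2 differed by 8.95 ± 0.39, with 2920 ± 1200 CPM in heart and 5.88 ± 0.527 in striatum. Cox7a1 and Cox6a2, which were members in both tissues, were separated by far more than the spread of either tissue. Cox6a1, the partner of Cox6a2, was the member lower in heart, with 97.3 ± 54.1 CPM in heart and 174 ± 14.2 in striatum and a difference of -0.84 ± 0.292 (adjusted p = 0.0185), lost in 3 of 8 fits without 1 library. Cox8a, the partner of Cox8b, was at -0.55 ± 0.262 (adjusted p = 0.07).

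Per kilobase (kb) of exonic length, levels could be ranked between genes. In untreated WT hearts Ndufb10 (893 ± 305 CPM per kb, SD, n = 4) and Ndufb9 (696 ± 323), accessory subunits of the membrane arm, led complex I. Sdhb, the iron-sulfur subunit (837 ± 211), and Sdha (431 ± 84.4) led complex II, and Uqcrh, the hinge protein (1231 ± 477), and Uqcrfs1, the Rieske protein (623 ± 228), led complex III. In complex IV these were Cox6a2 (3208 ± 1304) and Cox4i1 (1986 ± 838), and in complex V Atp5b (1942 ± 225) and Atp5g3 (1814 ± 562). Within complexes I and V the leading pair lay within each other's spread, while Cox6a2 lay above the spread of Cox4i1. Both genes of a pair were read in the same libraries, so this spread does not measure how sure their order is.

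In untreated WT striata Ndufb10 (229 ± 25.4 CPM per kb) and Ndufb9 (216 ± 25.6) again led complex I, and Uqcrh (380 ± 44.1) led complex III before Uqcr10 (176 ± 13.6), one of its small subunits. Sdha (123 ± 12.6) stood before Sdhb (96.1 ± 8.19), the reverse of the order in heart. Cox4i1 (584 ± 65.5) and Cox6a1 (404 ± 34.4) led complex IV, and Atp5b (510 ± 59) and Atp5k (427 ± 76.9), the e subunit that joins synthase dimers, led complex V.

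Summed over all members, heart levels were 43840 ± 12980 CPM in untreated WT, 37025 ± 11250 under PTU and 34534 ± 3698 after PTU+TH (SD, n = 4 each). In mutant hearts they were 42032 ± 2816 (n = 3), 31991 ± 874 (n = 3) and 33094 ± 2627 (n = 4). The WT groups overlapped, while the untreated mutant hearts, at 38865 to 44255 CPM, lay above the mutant PTU hearts, at 31081 to 32823. Complex V made up 33.2 ± 2.49% of the sum in untreated WT hearts, complex I 27.2 ± 1.15%, complex IV 22.4 ± 3.35%, complex III 10.3 ± 0.202% and complex II 6.89 ± 1.2%.

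**Figure D1:**
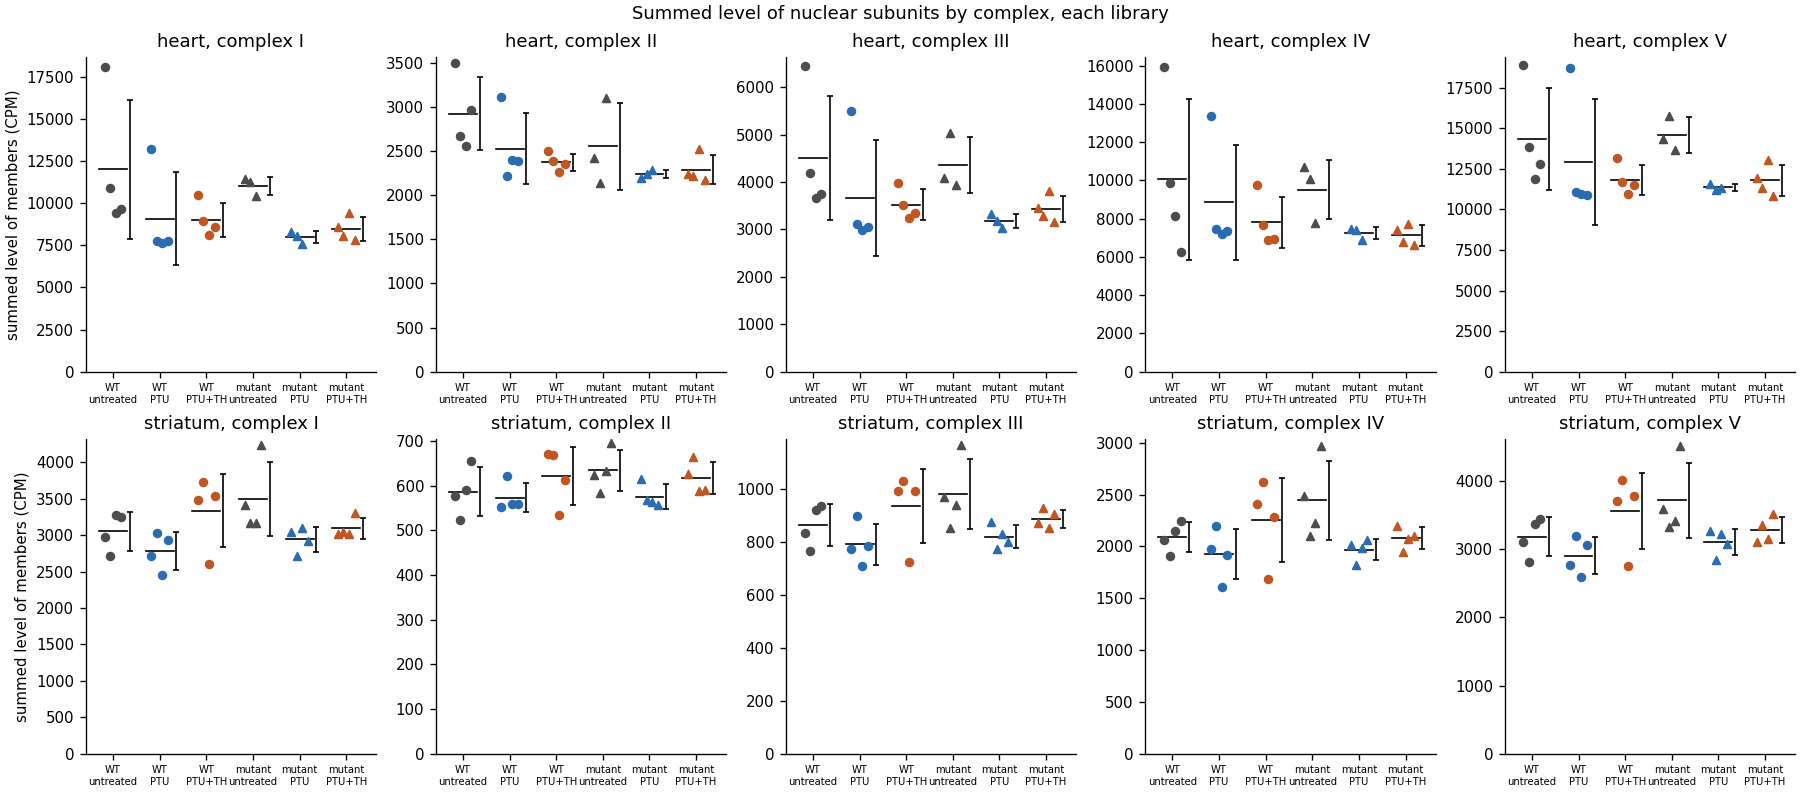
Summed level of the members of each complex in CPM (vertical axis) in every library, by group and tissue; circles are WT and triangles mutant, grey is untreated, blue PTU and orange PTU+TH, lines are means and bars SD. Over all complexes heart libraries summed to 30591 to 62850 CPM, with WT untreated replicate 1 and WT PTU replicate 1 highest, and striatum libraries to 7930 to 13583 CPM.

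Striatum sums were 9777 ± 820 CPM in untreated WT, 8977 ± 847 under PTU and 10711 ± 1656 after PTU+TH. Mutant striata had 11270 ± 1603, 9408 ± 491 and 9961 ± 317 (SD, n = 4 each). The untreated mutants, at 10033 to 13583 CPM, lay above the PTU mutants, at 8719 to 9815, and the WT groups overlapped. Striatum libraries fell into 2 classes by the share of alignments outside genes, divided at 7%, and 3 of the 4 untreated mutants were in the low class, while 0 of the 4 PTU mutants were. The fourth untreated mutant, replicate 2, had 11.1% and the lowest sum of its group, 10033 CPM. That sum was still above those of all PTU mutants, whose shares were 9.56 to 11.3%. With the class as a term, chosen after seeing the data, the members' median PTU value in mutants was -0.17 on the log2 scale against -0.28 without it, and 5 against 31 members had an unadjusted p under 0.05. In mutants the class went largely with the PTU treatment, and the cause of the lower sums was not tested. Over all 24 striatum libraries complex V kept 31.5 to 33.8% of the sum and complex I 30.5 to 31.9%.

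In WT hearts 1 member, Cox7a1, was called lower under PTU, where 3.02% of all genes were, and 0 were called higher. Fitted changes were below 0 for 76 of the 86 members, with a median of -0.35 beside 0.01 over all genes on the log2 scale, and 19 had an unadjusted p under 0.05. The share of all genes at that unadjusted threshold is not given here. Medians by complex were -0.44 for I, -0.22 for II, -0.39 for III, -0.30 for IV and -0.21 for V. The count was 25, all lower, without WT PTU replicate 1, where 4.51% of all genes were lower, and 13 without the 3 libraries that stood apart, where 4.28% were. Cox7a1, Cox5a, Ndufa9, Ndufb8, Ndufs3, Ndufs6 and Uqcrq were called lower without the 3 libraries, with the length slope as a covariate, and with both. Cardiomyocyte markers, which hold the hormone target Myh6, summed to 70811 to 85451 CPM in untreated WT hearts and 41976 to 55147 under PTU, macrophage markers to 58.9 to 77.3 and 35.9 to 41.3, and blood cell markers to 1084 to 2751 and 211 to 897. None of these 3 pairs of ranges overlapped, and the part of these cells in the result was not tested.

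Cox7a1 encodes the heart and muscle form of subunit VIIa. Untreated WT hearts had 1160, 663, 546 and 457 CPM, WT PTU hearts 434, 212, 194 and 229, and WT PTU+TH hearts 396, 339, 280 and 276. Untreated mutant hearts had 678, 561 and 445 CPM, mutant PTU hearts 241, 245 and 218, and mutant PTU+TH hearts 267, 261, 313 and 258. Every untreated heart was above every PTU and every PTU+TH heart of its genotype. The change under PTU was -1.40 ± 0.26 (adjusted p = 0.00158) in WT, where the fit of the 2 groups alone gave an adjusted p of 0.0798. In mutants it was -1.26 ± 0.3 (adjusted p = 0.0129), lost in 3 of 6 fits without 1 library. Averaged over the genotypes it was -1.33 ± 0.199 (adjusted p = 0.000147), and it was called in all 14 fits without 1 library and all 9 other alternatives, with adjusted p from 7.56e-12 to 0.00378.

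Cox7a2, the form of most tissues, was at 579, 401, 275 and 200 CPM in untreated WT hearts and 417, 281, 257 and 260 under PTU, groups that overlapped. Mutant hearts had 414, 217 and 251 untreated and 317, 321 and 302 CPM under PTU. Its PTU change was -0.26 ± 0.245 (adjusted p = 0.631) in WT and 0.09 ± 0.284 (adjusted p = 0.86) in mutants. Per kb, Cox7a1 made up 70.7 ± 2.75% of the pair in untreated WT hearts, 51.1 ± 3.79% under PTU and 58.4 ± 2.35% after PTU+TH, and 70.5 ± 4.91%, 48 ± 0.779% and 51.6 ± 1.77% in mutants. The untreated shares, 67.1 to 73.7% in WT and 66.8 to 76.1% in mutants, lay above all PTU shares. In striatum Cox7a1 was 0.217 to 1.02% of the pair.

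**Figure D2:**
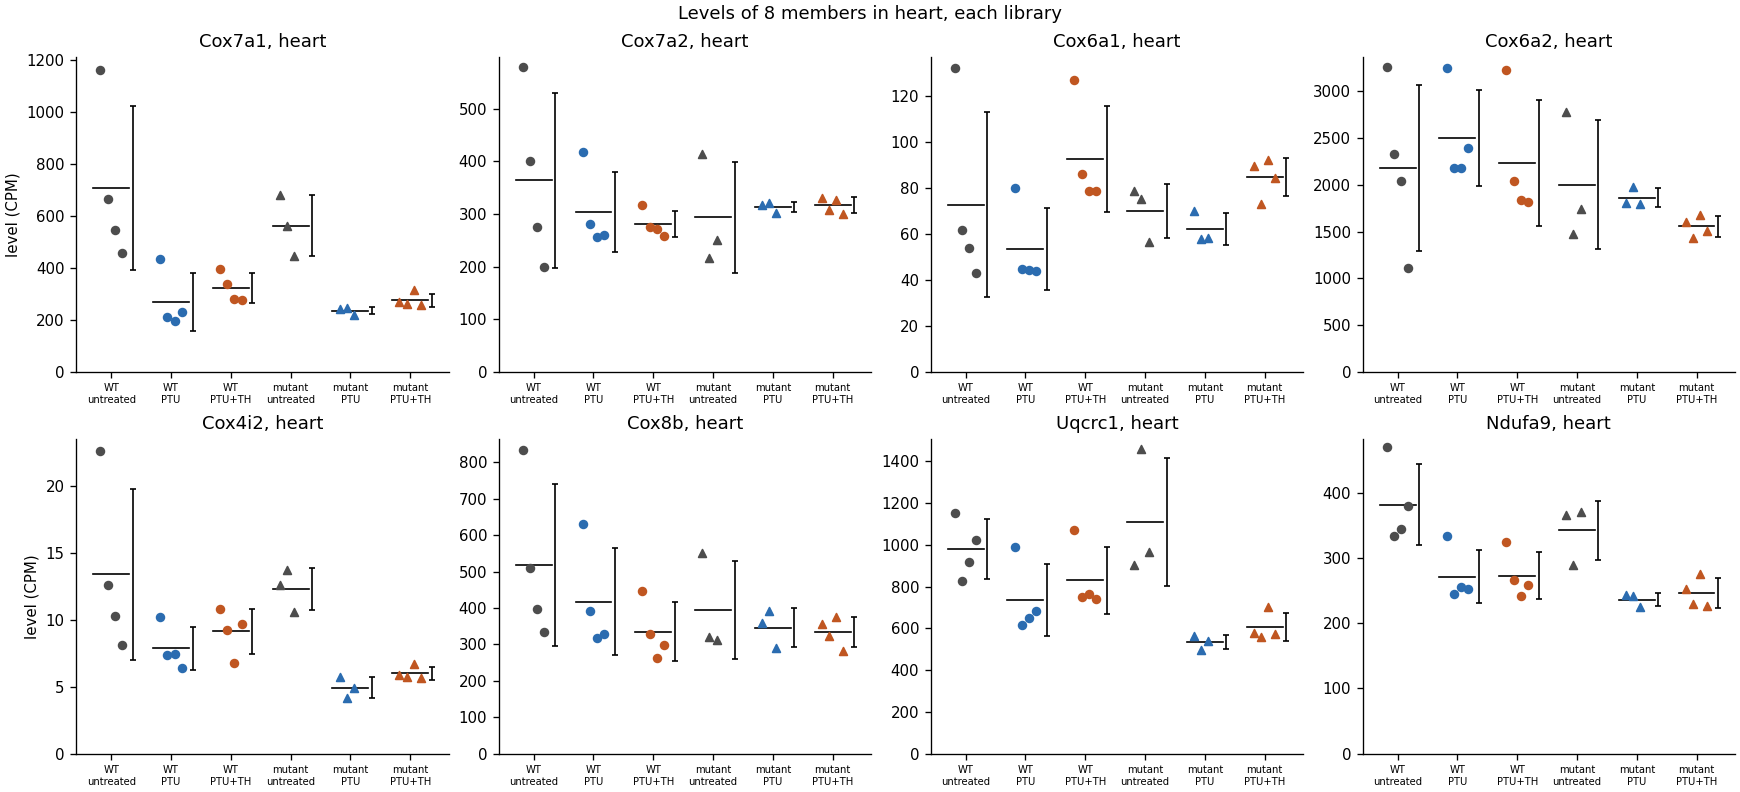
CPM (vertical axes) of Cox7a1, Cox7a2, Cox6a1, Cox6a2, Cox4i2, Cox8b, Uqcrc1 and Ndufa9 in each of the 22 heart libraries by group; circles are WT and triangles mutant, grey is untreated, blue PTU and orange PTU+TH, lines are means and bars SD. Cox7a1 lies at 445 to 1160 CPM in untreated hearts and at 194 to 434 CPM under PTU.

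In mutant hearts 15 of 86 members were called lower under PTU, where 7.54% of all genes were, and 1 higher, where 6.24% were. The members that fell were 5 of complex I (Ndufa2, Ndufa9, Ndufb7, Ndufv1, Ndufv3), 3 of complex III (Uqcr11, Uqcrc1, Uqcrq), 4 of complex IV (Cox4i2, Cox7a1, Ndufa4, Ndufa4l2) and 3 of complex V (Atp5d, Atp5e, Atp5j2). The median change was -0.40 beside -0.02 over all genes. The groups of all 16 called members did not overlap, but separate groups were common among members not called too. Of the 86 members, 43 were lower in every PTU heart and 1 was higher. The share over all genes is not given here. The count was 0 without mutant untreated replicate 2, where 0.347% of all genes were called lower, 0 without mutant PTU replicate 2 (0.428%), 6 without mutant PTU replicate 1 (4.09%) and 3 without mutant PTU replicate 3 (2.53%). It was 27 without the 3 libraries that stood apart (6.69%) and 0 when the length slope was fitted as well (0.0701%). From untreated to PTU mutant hearts cardiomyocyte markers summed to 68204 to 108678 and 49555 to 57844 CPM, macrophage markers to 64.7 to 182 and 28.7 to 37.9, skeletal muscle markers to 1680 to 2468 and 1428 to 1574 and brown adipocyte markers to 22.7 to 28.1 and 11.2 to 20.7. These ranges did not overlap, those of blood cells did (935 to 1881 and 451 to 1099), and the part of these cells in the result was not tested. Ckm alone was at 1679 to 2463 CPM untreated and 1427 to 1572 under PTU, nearly all of the skeletal muscle sum. Ucp1, which defines brown adipocytes, was at 0 CPM in the untreated mutant hearts and at most 0.392 under PTU. The sums of these 2 lists therefore do not show a change in skeletal muscle or brown fat.

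Uqcrc1, a core protein of complex III, was at 902, 1459 and 967 CPM in untreated mutant hearts and 564, 497 and 539 under PTU, a change of -1.06 ± 0.219 (adjusted p = 0.00783). Ndufv1, which carries the flavin that takes electrons from NADH, was at 472, 802 and 641 untreated, and at 325, 295 and 344 CPM under PTU, a change of -0.99 ± 0.239 (adjusted p = 0.0138). Ndufb7, an accessory subunit on the intermembrane side of complex I, was at 236, 554 and 272 untreated, and at 158, 116 and 118 CPM under PTU, a change of -1.43 ± 0.366 (adjusted p = 0.0176). The highest untreated value of each was that of mutant untreated replicate 2.

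Forms of complex IV subunits known from hypoxia were also lower. Cox4i2, the second form of subunit IV, was at 12.6, 13.7 and 10.6 CPM in untreated mutant hearts and 5.72, 4.17 and 4.9 under PTU, a change of -1.29 ± 0.296 (adjusted p = 0.0107). In WT hearts it was at 22.6, 12.6, 10.3 and 8.16 untreated, and at 10.2, 7.39, 7.44 and 6.43 CPM under PTU, with a value of -0.76 ± 0.236 (adjusted p = 0.0657). Ndufa4l2, a relative of Ndufa4, was at 18.9, 17.6 and 11.3 untreated, and at 6.48, 7.42 and 6.57 CPM under PTU in mutants, a change of -1.21 ± 0.317 (adjusted p = 0.0193). The mutant groups were separate for both genes, and the WT groups of Cox4i2 overlapped.

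Other calls in mutants had 1 high untreated library. Atp5e, the epsilon subunit of the synthase, was at 317, 1389 and 358 CPM untreated and 229, 193 and 193 under PTU, a change of -1.75 ± 0.473 (adjusted p = 0.0227). Ndufa4 was at 669, 2791 and 575 untreated, and at 540, 517 and 482 CPM under PTU, a change of -1.39 ± 0.431 (adjusted p = 0.0368). In both, mutant untreated replicate 2 was far above the rest. Atp5l, subunit g of the synthase, rose from 23.9, 17.2 and 11 to 37.3, 43.8 and 27.8 CPM, a change of 1.06 ± 0.35 (adjusted p = 0.0464) that was lost in 5 of 6 fits without 1 library.

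Averaged over the genotypes, 27 heart members were called lower under PTU, where 10.5% of all genes were, and 1 higher, where 8.38% were. The median was -0.35 beside -0.00 over all genes, with 75 of 86 below 0. The members that fell were 15 of 38 in complex I, 0 of 4 in complex II, 3 of 8 in complex III, 5 of 19 in complex IV and 4 of 17 in complex V. DESeq2 called 35 members, and in complex II 1 of 4 had an unadjusted p under 0.05. The count of calls was 52 without WT PTU replicate 1, where 27.9% of all genes were called in either direction, 14 without mutant untreated replicate 2 (11.1%) and 14 without mutant PTU replicate 2 (11.1%). It was 48 without the 3 libraries (20.9%) and 9 when the slope was fitted as well (3.99%).

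Besides Cox7a1, 3 members were called in this average in every fit run. Cox4i2 changed by -1.03 ± 0.189 (adjusted p = 0.00109), Uqcrc1 by -0.74 ± 0.144 (adjusted p = 0.00175) and Ndufa9, an accessory subunit where the arms of complex I meet, by -0.52 ± 0.116 (adjusted p = 0.00472). Ndufa9 was at 470, 333, 344 and 379 CPM in untreated WT hearts and 333, 245, 255 and 253 under PTU, and at 366, 290 and 371 untreated, and at 243, 241 and 225 under PTU in mutants. Its mutant groups were separate, and its WT groups met at replicate 1 of PTU. Ndufv3, an accessory subunit beside the flavin, changed by -0.69 ± 0.149 (adjusted p = 0.00361) and lost its call in 1 alternative, and Atp5l changed by 0.76 ± 0.226 (adjusted p = 0.0226) and lost it in 3 of 14 fits without 1 library and in 2 others.

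**Figure D3:**
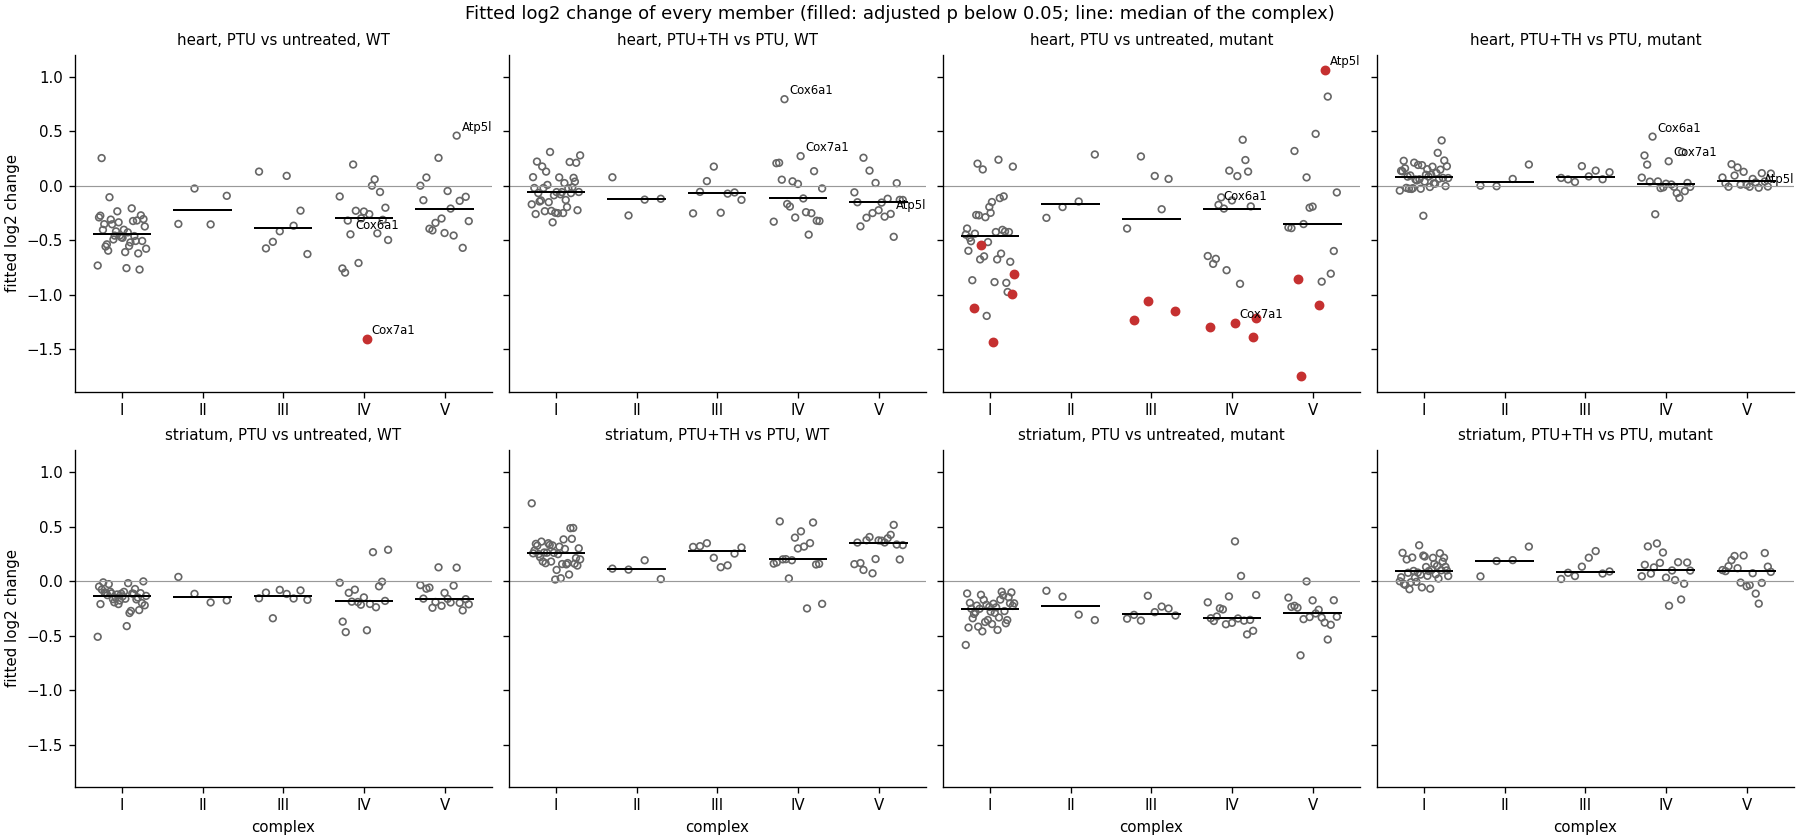
Fitted log2 change (vertical axis) of every member by complex (horizontal axis, lines are medians), for PTU against untreated and PTU+TH against PTU in each genotype, in heart and striatum; filled points passed the test at an adjusted p under 0.05. Most heart members lie below 0 under PTU, with medians of -0.35 in WT and -0.40 in mutants, and most striatum members above 0 after TH in WT, with a median of 0.25.

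After 24 hours of TH, 1 heart member was called, Cox6a1, in the average of the genotypes. For PTU+TH against PTU in WT, edgeR called 0 of 86, where 11.4% of all genes were called, 1 had an unadjusted p under 0.05 and DESeq2 called 1. In mutants edgeR called 0, where 0.41% of all genes were, 0 had an unadjusted p under 0.05 and DESeq2 called 0. In the average 1 was called higher, where 6.09% of all genes were. The medians were -0.08 beside -0.03 over all genes in WT and 0.06 beside 0.00 over all genes in mutants.

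Cox6a1 encodes the form of subunit VIa found in most tissues. WT hearts had 132, 61.8, 53.9 and 43 CPM untreated, 80.1, 44.9, 44.4 and 43.7 under PTU and 127, 85.9, 78.5 and 78.8 after PTU+TH. Mutant hearts had 78.5, 75.1 and 56.6, then 70, 57.8 and 58.1, then 89.4, 73.2, 92.2 and 84.4 CPM. Mutant PTU+TH hearts were all above mutant PTU hearts, and in WT the groups overlapped through PTU replicate 1. The change was 0.80 ± 0.27 (adjusted p = 0.059) in WT, with adjusted p from 1.69e-05 to 0.208 over the alternatives, and 0.45 ± 0.293 (adjusted p = 0.898) in mutants. In the average it was 0.62 ± 0.2 (adjusted p = 0.0433), lost in 11 of 15 fits without 1 library. The muscle form Cox6a2 was at 3251, 2174, 2182 and 2388 CPM in WT PTU and 3227, 2039, 1833 and 1812 in WT PTU+TH hearts, with a value of -0.17 ± 0.259 (adjusted p = 0.776).

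Per kb, Cox6a1 made up 3.78 ± 0.837% of its pair in untreated WT hearts, 2.44 ± 0.302% under PTU and 4.76 ± 0.196% after PTU+TH, and 4.23 ± 1.3%, 3.83 ± 0.533% and 6.09 ± 0.24% in mutants. PTU and PTU+TH shares did not overlap in either genotype, at 2.13 to 2.85% and 4.48 to 4.93% in WT and 3.36 to 4.41% and 5.74 to 6.27% in mutants. Cox8a in its pair with Cox8b was at 10.8 ± 1.28% under PTU and 14.3 ± 1.1% after PTU+TH in WT, and at 10.6 ± 0.727% and 13.1 ± 0.559% in mutants, again without overlap. Shares were given no test. In striatum Cox6a1 was 92.5 to 98.1% of its pair.

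**Figure D4:**
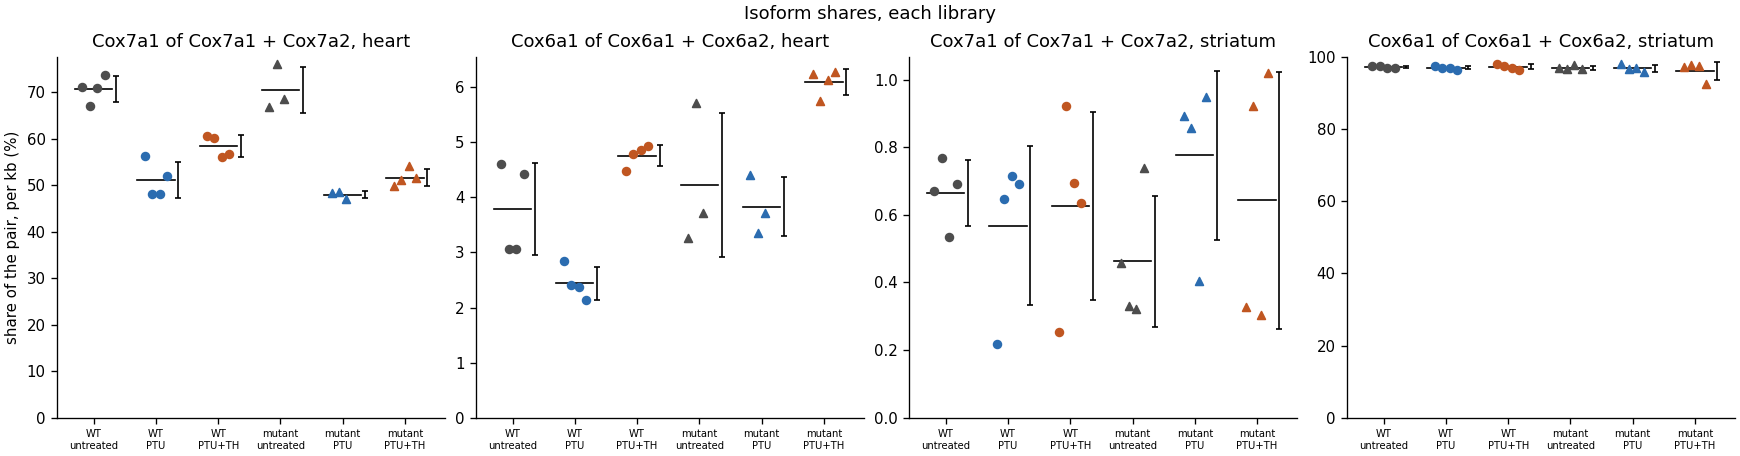
Share of Cox7a1 in Cox7a1 plus Cox7a2 and of Cox6a1 in Cox6a1 plus Cox6a2, in percent of CPM per kb (vertical axes), in each heart and striatum library by group; circles are WT and triangles mutant, grey is untreated, blue PTU and orange PTU+TH, lines are means and bars SD. In heart the untreated Cox7a1 shares lie at 66.8 to 76.1% and the PTU shares at 47.1 to 56.1%.

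The other pairs were dominated by 1 form. In untreated WT mice Cox8b was 90.9 ± 1.19% of its pair in heart and 0.253 ± 0.196% in striatum. Cox4i2 was 0.841 ± 0.126% and 0.898 ± 0.216% of its pair, Cox6b2, a form known from testis, 0.323 ± 0.0787% and 1.25 ± 0.404%, and Ndufa4l2 1.4 ± 0.352% and 0.916 ± 0.16%. Cox7b2, under the count minimum in heart, was 0.0228 ± 0.00354% and 0.496 ± 0.287%. Of the genes for the rotor ring subunit c, Atp5g3 made up 96.8 ± 0.471% and 95.7 ± 0.346%, Atp5g1 2.53 ± 0.352% and 2.31 ± 0.29%, and Atp5g2 0.718 ± 0.162% and 1.96 ± 0.263%. The Atp5g1 share rests on its exonic length of 4912 bases, against 724 for Atp5g3, and from raw counts it was 15% in heart and 13.8% in striatum.

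Under other handling of length and of the 3 libraries, TH in WT hearts gave 5 members called higher with the length slope, 9 without the 3 libraries and 4 with both, and 0 lower. These are 5.81, 10.5 and 4.65% of the 86 members, beside 9.23, 9.79 and 8.54% of all genes called higher and 17.8, 18.8 and 15.8% called in either direction. The members were thus called no more often than genes at large in 2 of these fits and at close to the same rate in the one without the 3 libraries. Cox6a1, Cox7a1, Ndufs4 and Atp5g1 were called higher without the 3 libraries, with the length slope, and with both. Ndufs4, an accessory subunit of the electron-input arm of complex I, was at 251, 141, 130 and 138 CPM under PTU and 192, 202, 183 and 191 after PTU+TH, so that PTU replicate 1 alone overlapped. Its value was 0.22 ± 0.223 (adjusted p = 0.631) with all libraries and 0.50 (adjusted p = 0.0103) without the 3. Cox7a1 was at 0.27 ± 0.256 (adjusted p = 0.591) with all libraries, 0.44 (adjusted p = 0.00799) with the slope and 0.62 (adjusted p = 0.00971) without the 3. Leaving out these libraries was chosen after seeing the data.

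PTU+TH hearts were also set against untreated hearts, which serve in the PTU comparison too. In WT, Cox7a1 was the 1 member called lower, where 1.03% of all genes were, at -1.13 ± 0.258 (adjusted p = 0.0218), and it lost the call in 4 of 8 fits without 1 library. In mutants 20 were called lower, where 11.3% of all genes were, and 1, Atp5l, higher, where 10.7% were. The lower ones were 8 of complex I, 3 of complex III, 6 of complex IV and 3 of complex V, led by Ndufv1 at -0.99 ± 0.22 (adjusted p = 0.00418), Uqcrc1 at -0.88 ± 0.201 (adjusted p = 0.0052) and Ndufa4l2 at -1.22 ± 0.29 (adjusted p = 0.00622). Cox7a2l was the 1 called member with overlapping groups, at 82.7, 302 and 99.4 CPM untreated and 87.2, 84.5, 92.5 and 76.7 after PTU+TH, a change of -0.91 ± 0.32 (adjusted p = 0.0455). Separate groups were common among members not called too, with 33 of all 86 lower in every PTU+TH heart and 3 higher. The share over all genes is again not given, so these counts cannot be read as a result about the members. The number called lower was 5 without mutant untreated replicate 2, where 4.36% of all genes were, 10 without mutant PTU+TH replicate 1 (7.54%), 10 without replicate 2 (7.3%) and 10 without replicate 4 (7.81%).

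Between genotypes edgeR called no heart member. In untreated hearts it called 0, where 0% of all genes were called, with 9 at an unadjusted p under 0.05 and 0 by DESeq2. Under PTU it called 0, where 2.2% were, with 6 at an unadjusted p under 0.05 and 1 by DESeq2. After PTU+TH it called 0, where 0.0141% were, with 5 at an unadjusted p under 0.05 and 0 by DESeq2. The genotype difference in the PTU response had 0 called, where 0.579% were, with 5 at an unadjusted p under 0.05, and that in the TH response 0, where 0.29% were, with 0, and DESeq2 called 0 in both. The greater number of members called under PTU in mutants than in WT is therefore not shown to be a difference between genotypes.

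Atp5g2, a rotor ring gene, had the smallest adjusted p between genotypes under PTU. It was at 13.9, 10.3, 11.3 and 10.5 CPM in WT PTU hearts and 7.49, 6.26 and 6.28 in mutant PTU hearts, groups that did not overlap, with a difference of -0.78 ± 0.229 (adjusted p = 0.078). It was at -0.60 ± 0.242 (adjusted p = 0.839) in untreated hearts and -0.52 ± 0.209 (adjusted p = 0.317) after PTU+TH.

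The direction of the genotype difference under PTU turned with the handling of length. The members' median was -0.19 with all libraries, 0.08 without the 3 libraries and 0.12 with the slope as a covariate, and the last 2 fits each called 9 members higher in mutants and 0 lower. All genes called higher in mutants came to 4.81% without the 3 libraries and 3.24% with the slope, and those called in either direction to 6.97% and 4.85%, beside 10.5% of the members. Ndufb4, Cox7c, Ndufa1, Ndufb8, Ndufc1, Ndufc2 and Atp5pb were called in both. Ndufb4, a membrane-arm subunit of complex I, was at 40.8, 19.6, 10 and 14.4 CPM in WT PTU hearts and 28.4, 33.5 and 30.5 in mutants, with 0.53 ± 0.354 (adjusted p = 0.447) with all libraries and 1.10 (adjusted p = 0.0059) without the 3. Cox7c, a small subunit of complex IV, was at 230, 95.1, 72.5 and 78.7 CPM in WT and at 157, 148 and 157 in mutants, with 0.37 ± 0.402 (adjusted p = 0.667) and 0.93 (adjusted p = 0.0187). For both genes WT PTU replicate 1 alone lay above the mutant hearts.

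**Figure D5:**
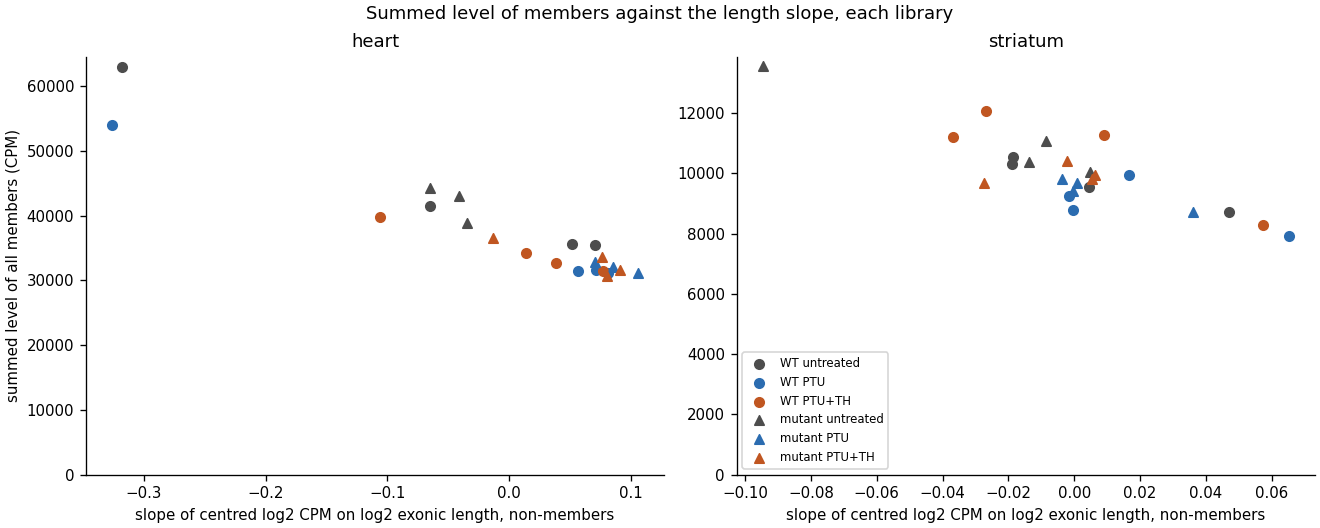
Length slope of each library (horizontal axis, slope of centred log2 CPM on log2 exonic length over genes that are not members) against the summed level of the members in CPM (vertical axis), for heart and striatum; circles are WT and triangles mutant, grey is untreated, blue PTU and orange PTU+TH. WT untreated replicate 1 (-0.32, 62850 CPM) and WT PTU replicate 1 (-0.33, 53897 CPM) lie apart from the other hearts, which are between -0.11 and 0.11.

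In striatum edgeR called no member in any comparison. For PTU against untreated it called 0 in WT, where 0% of all genes were called, with 4 at an unadjusted p under 0.05, and 0 in mutants, where 0% were, with 31, and DESeq2 called 0 in both. The medians were -0.15 beside 0.00 over all genes in WT and -0.28 beside -0.02 over all genes in mutants, with 77 and 80 of 82 members below 0. In the average it called 0, where 0.0447% were, with 43 at an unadjusted p under 0.05. DESeq2 called 4 in the average, namely Ndufa11, Ndufa1, Uqcrb and Cox7b. The share of all genes at the unadjusted threshold is not given here, so counts at it cannot be set against genes at large.

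For PTU+TH against PTU, edgeR called 0 of 82 in WT striata, where 0.459% of all genes were called, with 25 at an unadjusted p under 0.05 and 1 by DESeq2. The median was 0.25 beside -0.01 over all genes, with 80 members above 0, among them all 36 of complex I and all 17 of complex V. In mutants it called 0, where 0% were, with 2 at an unadjusted p under 0.05, 0 by DESeq2 and a median of 0.10. In the average it called 0, where 0% were, with 22 at an unadjusted p under 0.05 and 0 by DESeq2. The PTU libraries serve in both the PTU and the TH comparison. Without WT PTU+TH replicate 3, whose members summed to 8296 CPM against 11218 to 12061 in the rest of its group, 9 of 82 members were called higher in WT, where 1.61% of all genes were. With the class of no-feature share as a term 0 members were called, where 1.31% of all genes were.

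Ndufa1, a small membrane-arm subunit of complex I, had the smallest adjusted p in striatum. WT striata had 73.3, 58.5, 83.9 and 71.9 CPM untreated, 54.6, 58.3, 37.1 and 51.7 under PTU and 90.4, 107, 53.5 and 79.9 after PTU+TH. Untreated values were all above PTU values, and PTU+TH values overlapped with PTU values through replicate 3. It was at -0.51 ± 0.18 (adjusted p = 0.487) under PTU and 0.71 ± 0.18 (adjusted p = 0.0698) after TH. Mutant striata had 74.4 to 112 CPM untreated, 55.1 to 74.1 under PTU and 48 to 68.3 after PTU+TH, with values of -0.59 ± 0.179 (adjusted p = 0.491) and -0.00 ± 0.179 (adjusted p = 0.999). The genotype difference in its TH response was -0.72 ± 0.253 (adjusted p = 0.665).

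The lowest PTU values of the other complexes in WT striata were -0.20 ± 0.138 (adjusted p = 0.808) for Sdhc, a membrane anchor of complex II, -0.34 ± 0.131 (adjusted p = 0.539) for Uqcrb, a ubiquinone-binding subunit of complex III, -0.47 ± 0.205 (adjusted p = 0.621) for Cox5a and -0.27 ± 0.169 (adjusted p = 0.772) for Atp5mpl. After TH the highest were 0.19 ± 0.138 (adjusted p = 0.597) for Sdhc, 0.35 ± 0.131 (adjusted p = 0.245) for Uqcrb, 0.55 ± 0.205 (adjusted p = 0.239) for Cox5a and 0.52 ± 0.192 (adjusted p = 0.238) for Atp5md. Cox7a2l had the lowest TH value of complex IV, -0.25 ± 0.135 (adjusted p = 0.454). None of these passed the test, and Cox5a levels were 102 to 115 CPM untreated, 64.9 to 96.9 under PTU and 75.6 to 154 after PTU+TH.

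The remaining striatum comparisons gave no calls. For mutant against WT edgeR called 0 members in untreated, 0 in PTU and 0 in PTU+TH striata, where 0% of all genes were called each time, with 11, 0 and 1 at an unadjusted p under 0.05. The medians were 0.18, 0.05 and -0.09. For PTU+TH against untreated it called 0 in WT and 0 in mutants, where 0% were, with 1 and 14. The genotype differences in the PTU and TH responses had 0 called, where 0% were, with 0 and 3, and DESeq2 called 0 in all of these.

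At the ends of each complex's range in WT hearts, the highest PTU values were 0.26 ± 0.445 for Ndufa11b, -0.02 ± 0.202 for Sdhb, 0.13 ± 0.265 for Uqcr10, 0.20 ± 0.259 for Cox6a2 and 0.46 ± 0.288 for Atp5l. Beside Cox7a1 the lowest were -0.77 ± 0.34 for Ndufs6b, -0.35 ± 0.24 for Sdhc, -0.63 ± 0.302 for Uqcrq and -0.57 ± 0.282 for Atp5mpl. After TH the highest beside Cox6a1 were 0.31 ± 0.206 for Ndufb10 and 0.26 ± 0.222 for Atp5d, a central stalk subunit. The lowest were -0.47 ± 0.401 for Atp5md and -0.45 ± 0.268 for Cox7b. None of these passed the test.

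Genes around the complexes were read from lists. The inhibitor of the synthase, Atp5if1, is listed as Atpif1, outside the symbol rule. It was at 127 to 287 CPM in untreated WT hearts, 202 to 442 under PTU and 188 to 252 after PTU+TH, and in the average of the genotypes it rose under PTU by 0.55 ± 0.179 (adjusted p = 0.0355). Higd1a, which helps complex IV assemble, fell under PTU in WT hearts, with a log2 change of -1.06 ± 0.229 (adjusted p = 0.00633) and rose after TH, with 1.55 ± 0.231 (adjusted p = 5.9e-05). Its levels were 51.7 to 114 CPM untreated, 29.7 to 51.3 under PTU and 102 to 123 after PTU+TH, with the PTU libraries common to both values.

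Of 54 assembly factors tested in WT hearts, 1 fell under PTU, where 3.02% of all genes did, and 0 rose. It was Sdhaf4, a complex II factor (-0.77 ± 0.219, adjusted p = 0.0418). After TH 5 of the 54 rose, where 5.81% of all genes rose and 11.4% were called in either direction, and 0 fell. They were Coa5 (0.94 ± 0.192), Sdhaf4 (0.76 ± 0.219), Ndufaf4 (0.74 ± 0.172), Ndufaf1 (0.48 ± 0.139) and Coa7 (0.48 ± 0.131). In mutants under PTU 4 of the 54 were called higher (Coa5, Ndufaf4, Atpaf1 and Ttc19), where 6.24% of all genes were. Called lower were 2 (Ecsit and Uqcc3), where 7.54% of all genes were. These counts are close to or under the all-gene shares. After TH 0 assembly factors were called higher and 0 lower in mutants, where 0.41% of all genes were called. Of 20 regulators of mitochondrial biogenesis, Ppargc1a, a coactivator of respiratory genes, rose under PTU (1.58 ± 0.357, adjusted p = 0.00899) and fell after TH (-1.59 ± 0.357, adjusted p = 0.00404). Its relative Ppargc1b (1.29 ± 0.28), Nrip1 (0.88 ± 0.262) and the mitochondrial RNA polymerase Polrmt (0.62 ± 0.166) rose after TH, where 5.81% of all genes rose. In mutants under PTU 4 of the 20 regulators were called higher (Ppargc1a, Ppara, Esrrg and Gabpa), where 6.24% of all genes were. Called lower were 3 (Esrra, Polrmt and Polg), where 7.54% of all genes were. After TH 0 regulators were called higher and 0 lower in mutants. Of 13 mitochondrially encoded subunits and 75 ribosomal protein genes, 0 were called in either WT comparison, with medians under PTU of -0.22 and 0.25. In mutants 1 mitochondrially encoded subunit, mt-Nd6, was called lower under PTU. It took 0.033, 7.689 and 0.232% of the counts of the untreated mutant hearts and 0.024, 0.02 and 0.022% under PTU. The highest share was that of replicate 2, which stood apart. In striatum 0 genes of these lists were called in the same comparisons.

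Replicates of a group differed in how closely they agreed. The median coefficient of variation of the heart members was 42.4% in untreated WT, 35% in WT PTU, 13.5% in WT PTU+TH, 24.3% in untreated mutants, 7.54% in mutant PTU and 9.47% in mutant PTU+TH hearts. In striatum it was between 10.9 and 19.4%. The WT groups with the largest spread were those that held a library with a steep length slope.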

How the data were processed

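The deposited files hold counts, whole numbers of reads per gene and library, which the authors made with Bowtie2 and HTSeq on GRCm39, per the submitters' processing notes; no source used here gives their versions, the strand setting or the annotation release. Libraries were made from 1 ug of total RNA with the CORALL V2 kit, per the labels' protocols. The 5 lines of each file that name no gene, 27.66 to 48.03% of the counts of a heart file and 20.66 to 29.26% of a striatum file, were kept out of totals and tests. Depth ran from 3269806 to 19531711 counts per library.

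The 22 heart and the 24 striatum libraries were modelled separately, with a coefficient for each group, by the quasi-likelihood F test of edgeR 4.0.16 (limma 3.58.1, R 4.3.3), after TMM scaling and the package's own filter on low counts. Contrasts came to 27 in all, and p-values were adjusted by Benjamini and Hochberg over all genes tested, with a call at 0.05. CPM are counts scaled by each library's TMM-adjusted total, and levels per kb use exonic lengths of GENCODE M21. DESeq2 1.42.0, other scalings and filters, a length slope, a replicate block, leaving out libraries and fits of only the groups compared were alternatives; a term for the share of reads outside features in striatum and leaving out 3 heart libraries together were chosen after seeing the data. Shares of all genes called were taken at the adjusted threshold alone, and counts at an unadjusted p under 0.05 have none beside them. The pipeline was tested on simulated data. No pair of replicates was as close as sampling noise allows.

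Members with values in the text are those called (the 5 rises and 5 falls of smallest adjusted p where over 10 were), the extremes of each complex in WT, the isoform pairs, and the highest per kb; Ndufs4, Ndufb4, Cox7c, Atp5g2 and Cox7a2l in the genotype and length paragraphs were chosen after their values were seen where the rule does not name them. The members, gene lists and tests were chosen with earlier results of these data known. Promoters are from RefSeq, GRCm38.p6, and were matched by symbol only.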

Additional observations from a re-analysis of the deposited data

Results flagged for a closer look

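Of 144 groups of 4 libraries examined, 21 held 1 library whose gap to the nearest other was above Dixon's 95% critical value for its share of the group's range. Chance gives about 1 in 20 groups where these are independent. Here they are sums and single genes read in the same libraries, so the number flagged cannot be set against that rate. No explanation was tested, and values are in CPM with the range of the other 3 libraries of the group. The library heart WT untreated, replicate 1 had the summed level of complex I at 18086 (9413 to 10886) and Cox4i1 at 2480 (1163 to 1237). The library heart WT PTU, replicate 1 had the summed level of complex I at 13211 (7639 to 7779), the summed level of complex III at 5498 (2979 to 3107) and the summed level of complex IV at 13358 (7188 to 7484). The library heart WT PTU, replicate 1 also had the summed level of complex V at 18717 (10875 to 11077), Cox7a1 at 434 (194 to 229) and Cox7a2 at 417 (257 to 281). The library heart WT PTU, replicate 1 also had Cox6a1 at 80.1 (43.7 to 44.9), Cox8a at 117 (60 to 67.1) and Cox4i1 at 2483 (1025 to 1128). The library heart WT PTU, replicate 1 also had Atp5e at 493 (184 to 219). The library heart WT PTU+TH, replicate 1 had Cox6a1 at 127 (78.5 to 85.9) and Cox6a2 at 3227 (1812 to 2039). The library heart mutant PTU+TH, replicate 3 had the summed level of complex II at 2526 (2174 to 2234) and Cox7a1 at 313 (258 to 267). The library striatum WT untreated, replicate 3 had Cox4i2 at 5.85 (3.43 to 3.79). The library striatum WT PTU, replicate 2 had the summed level of complex II at 622 (553 to 559). The library striatum WT PTU+TH, replicate 3 had the summed level of complex III at 726 (992 to 1032) and Atp5e at 37.3 (73.5 to 77.1). The library striatum mutant PTU+TH, replicate 4 had the summed level of complex I at 3302 (3010 to 3040).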

How the results depend on the processing

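No named member that passed the test changed direction under the alternatives run, and the cause of each shift below was not tested. Of the values for named members under alternatives, 421 kept their side of the threshold, 10 gained it and 63 lost it. The number of all genes called moved between fits as well, so the shifts are not particular to the members. With DESeq2, members called in heart came to 5 for PTU in WT, 1 for TH in WT, 2 for PTU+TH against untreated in WT and 1 for mutant against WT under PTU, and in striatum to 1 for TH in WT and 4 for the mean PTU response. All genes called in these heart fits came to 1004, 1918, 518 and 550, and to 320 for TH in WT striata. With the length slope as covariate, heart counts were 12 for PTU, 5 for TH and 3 for PTU+TH against untreated in WT, 33 for PTU+TH against untreated in mutants, 9 and 2 for mutant against WT under PTU and PTU+TH, and 4 for the mean TH response. In the same order 1412, 2517, 595, 4091, 686, 126 and 2635 of 14156 genes were called. Without the filter member counts were 3, 1 and 4 in WT for PTU, TH and PTU+TH against untreated, 4 for mutant against WT untreated, 1 for the genotype difference under PTU, and in striatum 1 for TH in WT and 1 for the mean PTU response. All genes called came to 1001, 1700, 575, 127 and 341 in these heart fits and 257 for TH in WT striata. With only the groups compared member counts in heart were 0 for PTU and 0 for PTU+TH against untreated in WT, 10 for PTU in mutants, 8 for mutant against WT after PTU+TH and 12 for the mean PTU response. All genes called came to 194, 161, 377, 857 and 1381.

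Replicate numbers did not pair the samples: same-number correlations ran from -0.249 to 0.598 in heart and -0.686 to 0.455 in striatum. With the replicate block, heart counts were 5 for PTU and 1 for TH in WT, 26 for PTU in mutants and 1 for mutant against WT under PTU. All genes called came to 799, 1727, 1993 and 388 in these fits. Without the 3 libraries, chosen after seeing the data, member counts were 13, 9 and 2 in WT for PTU, TH and PTU+TH against untreated, 27 for PTU in mutants, 9 and 3 for mutant against WT under PTU and PTU+TH, and 48 and 9 for the mean PTU and TH responses. In the same order all genes called came to 991, 2689, 564, 1945, 994, 518, 2984 and 3097. With the slope fitted as well member counts were 8, 4 and 5 in WT, 0 and 7 in mutants for PTU and PTU+TH against untreated, 14 for mutant against WT under PTU, and 9 and 3 for the means. All genes called came to 859, 2260, 707, 18, 1075, 1210, 570 and 2654.

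Leaving out 1 library gave 1 to 25 calls for PTU in WT hearts, 0 to 1 for TH, 0 to 1 for PTU+TH against untreated, 0 to 19 for PTU in mutants, 5 to 21 for PTU+TH against untreated in mutants, 14 to 52 for the mean PTU and 0 to 1 for the mean TH response. In striatum it gave 0 to 9 for TH in WT, 0 to 4 for the mean PTU and 0 to 1 for the mean TH response, and between tissues 82 to 84.

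Scaling without mitochondrially encoded genes put the sums in untreated WT hearts at 19004, 4623, 7140, 15903 and 22709 CPM for complexes I to V and 69379 in all, and the other heart groups at 58152 and 54639 (WT PTU, PTU+TH) and 66491, 50402 and 52039 (mutants). In untreated WT striata it gave 3502, 673, 991, 2397 and 3650, and 11214 in all, with 10295 for WT PTU and 12928, 10788 and 11421 for mutants. From raw counts in place of levels per kb, shares in untreated WT hearts were 66.2% for Cox7a1, 33.8% for Cox7a2, 100% for Cox7b, 0.0124% for Cox7b2, 13.3% for Cox8a, 86.7% for Cox8b, 97.9% for Ndufa4, 2.09% for Ndufa4l2, 15% for Atp5g1 and 84.4% for Atp5g3. In striata they were 96.7% for Cox6a1, 3.28% for Cox6a2, 0.541% for Cox7a1, 99.5% for Cox7a2, 98.6% for Ndufa4, 1.36% for Ndufa4l2, 13.8% for Atp5g1 and 84.4% for Atp5g3.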
